A study of Drosophila melanogaster with 4 samples.

Results

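Introns of 71 to 200 bases form the length class just above the shortest introns of the fly genome, and their retention was followed in larvae mutant for Smn. The events were taken from the authors' retained intron tables, where an event is a pair of exons whose gap is the intron and whose forms are the intron kept and the intron removed. An event belonged to the class when the gap was 71 to 200 bases and the event was listed for both wild type and both mutant libraries. This gave 4835 of 23758 events, or 20.4%. Each of the 4835 was a different intron, with a median length of 98 bases and quartiles of 78 and 134.5 bases. By gene model, 3616 of the 4835 were matched to an annotated intron, in 2625 gene names.

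The larvae were Oregon R, the wild type strain, and SmnX7/D, carrying the mutant Smn alleles that the strain label names. Whole larvae of both groups were collected 74 ± 2 h after egg laying after growth at 24 ± 1 °C, and polyadenylated RNA was sequenced. Each group had 2 libraries. The labels do not say whether the libraries came from separate cultures, so the p-values measure the spread between these libraries only, which may be technical. The groups differ in strain as well as in Smn, and the 2 cannot be told apart. No event was matched to Smn itself, so the labels were not checked against its level.

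Introns are removed by the spliceosome, whose core is made of small nuclear ribonucleoproteins, particles of a short RNA and a ring of proteins. The survival motor neuron protein helps load that ring. A retained intron is one still present in a polyadenylated transcript, and in a 5′ untranslated region (UTR) or coding sequence (CDS) it can change or block translation of the message. A small minority of introns, the minor class, is removed by a separate and rarer spliceosome that reads its own start and branch sequences.

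Nearly all matched introns of the class began and ended with the usual bases. Of the 3616 matched introns, 98.6% began with GT and ended with AG, and 43 began with GC. Below are the first 20 and last 30 bases of 5 introns in 5′ UTRs that rose in the mutants, read from the dm6 genome, with the first 6 and last 3 intron bases in capitals. They are shown because they were among the largest rises, in fraction or in ratio.
CG11151 start: GTAAGCacttttcttttatt
CG11151 end: ttccggaaaaacaaaaccgcatacacaCAG
ND-PDSW start: GTAAATatggttttttaagt
ND-PDSW end: atttactaacagctcttccgcttacgcCAG
CG32276 start: GTACGCtgttttctcgggca
CG32276 end: attaacaaacaattcatttgcgaatttCAG
Gapdh2 start: GTAGTGtttccctcaattcc
Gapdh2 end: tgctttacatatacatacattactttcCAG
Neb-cGP start: GTGAGTagcccaagttaccg
Neb-cGP end: cacttgaaacgcatcaccttcaattcaCAG

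The next letters are whole introns inside coding sequence, with the same ends in capitals. Bacc and RpLP1 had more retained read pairs in the mutants and ergic53 had fewer.
Bacc: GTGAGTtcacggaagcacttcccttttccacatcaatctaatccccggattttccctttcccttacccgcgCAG
RpLP1: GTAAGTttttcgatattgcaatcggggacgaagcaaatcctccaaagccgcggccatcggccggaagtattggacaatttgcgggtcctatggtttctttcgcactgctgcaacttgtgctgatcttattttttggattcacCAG
ergic53: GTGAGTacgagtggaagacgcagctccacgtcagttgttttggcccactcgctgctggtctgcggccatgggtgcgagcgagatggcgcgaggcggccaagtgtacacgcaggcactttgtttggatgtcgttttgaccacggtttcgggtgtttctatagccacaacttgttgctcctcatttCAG

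The minor-class introns of this length were found by sequence. They begin with A or G, then TATCC, then T or C, and hold TCCTTAAC with at most 1 mismatch, whose next letter lies 5 to 40 bases before the intron end. Of the 3616 matched introns, 5 had that start and 3 had both, which is 0.083%. The start and the branch letters are in capitals. The branch letters matched exactly in all 3 and were followed by 19, 11 and 15 bases in the order printed.
BuGZ: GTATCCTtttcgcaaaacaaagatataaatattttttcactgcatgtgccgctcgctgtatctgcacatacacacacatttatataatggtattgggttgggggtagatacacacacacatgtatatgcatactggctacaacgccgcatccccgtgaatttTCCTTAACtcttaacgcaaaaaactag
Nhe3: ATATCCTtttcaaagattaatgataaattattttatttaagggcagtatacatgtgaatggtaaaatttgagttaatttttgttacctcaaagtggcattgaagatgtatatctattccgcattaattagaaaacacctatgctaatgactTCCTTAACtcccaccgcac
CG11839: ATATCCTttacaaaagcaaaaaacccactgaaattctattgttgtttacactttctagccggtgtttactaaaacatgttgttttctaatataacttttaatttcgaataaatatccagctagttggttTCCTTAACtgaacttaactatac

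The depth and make-up of the libraries bear on what follows. Over the 4835 events, the wild type files summed to 6098730 and 4523406 read pairs, and the mutant files to 5841787 and 5788172. Most of these pairs were not specific to either form of an event. The median intron had 23 and 19 pairs specific to either form in wild type and 29 and 31 in the mutants, and of these 2 and 2 against 4 and 4 lay in the intron. Scaled to 1000000 pairs of all retained intron events, 5 of 7 fat body marker genes with an event summed to 84009 and 55292 in wild type and 7037 and 8399 in the mutants. The 7 muscle genes summed to 13096 and 7601 against 29091 and 18433, 4 of 7 neuron genes to 131 and 288 against 134 and 123, 2 of 5 midgut genes to 870 and 327 against 446 and 631, and 2 of 5 cuticle genes to 46.8 and 46.6 against 76.7 and 71.2. In whole larvae, fewer cells of a type and less RNA per cell cannot be told apart, and the part of these differences in the results below was not tested.

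The typical intron of this class was mostly removed in both groups, while a minority was largely retained. The retained fraction, which the authors estimated with MISO as a posterior mean between 0 and 1 from all read pairs of an event, had a median of 0.07 and 0.08 in wild type and 0.08 and 0.07 in the mutants. Its mean over the 4835 introns was 0.217 and 0.225 in wild type and 0.241 and 0.235 in the mutants, a difference of 0.0175 with an exact permutation p of 0.333 (two-sided). With 2 libraries against 2 that test cannot go below 0.33. In all 4 libraries, 2110 introns were under 0.1 and 722 were at 0.5 or above. Introns with a group mean of at least 0.5 numbered 862 in wild type and 968 in the mutants.

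Retention differed with the place of the intron in the gene. Introns inside coding sequence, 2914 of those matched, had medians of 0.03 and 0.04 in wild type and 0.04 and 0.03 in the mutants. The 563 introns in 5′ UTRs had medians of 0.15 and 0.17 in wild type and 0.26 and 0.23 in the mutants, and the mutants were both above wild type at 247 of them (43.9%) and both below at 48 (8.53%). Among all 4835 introns these shares were 24.9% and 13.1%, and among all 23758 retained introns 26.9% and 12.2%. At the 420 introns whose retained form is itself annotated as an exon, medians were 0.45 and 0.44 against 0.58 and 0.58, with 48.8% above. The mutant medians of both these kinds of intron were above both wild type medians, while those of coding introns overlapped. Introns of 5′ UTRs up to 70 bases long had both mutants above at 49.0%, those above 200 and up to 1000 bases at 34.7% and longer ones at 36.3%, so a high share in 5′ UTRs was measured in the neighbouring class too.

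Single introns were then tested. The measure was the log2 of pairs found only in the retained form over pairs found only in the spliced form, with 0.5 added to each. An intron entered the test when every library had 20 or more of these pairs and the mean of each form was 10 or more, which held for 368 of the 4835 introns. Of the rest, 2824 had too few pairs, 1117 too few in the intron and 526 too few across the splice junction. Weakly expressed introns and almost fully spliced ones are therefore largely untested. An intron could pass through the group in which a form was abundant, and 98 of the 368 had a wild type mean under 10 pairs in the intron.

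The ratio was higher in the mutants at most tested introns. Its median over the 368 was -1.14 and -0.87 in wild type and -0.12 and -0.40 in the mutants, and both mutant medians lay above both wild type medians. The group means differed by 0.74, with an SD of 0.19 in each group (n = 2 each, exact permutation p = 0.333). At single introns, both mutant libraries were above both wild type libraries at 211 of 368 (57.3%) and below at 36 (9.78%), against 50.2% and 13.3% of the 3302 tested introns of all lengths. By the fit, the median change was 0.70 at introns of 71 to 200 bases and 0.55 at all 3302, so much of the shift was shared by introns of every length.

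**Figure D1:**
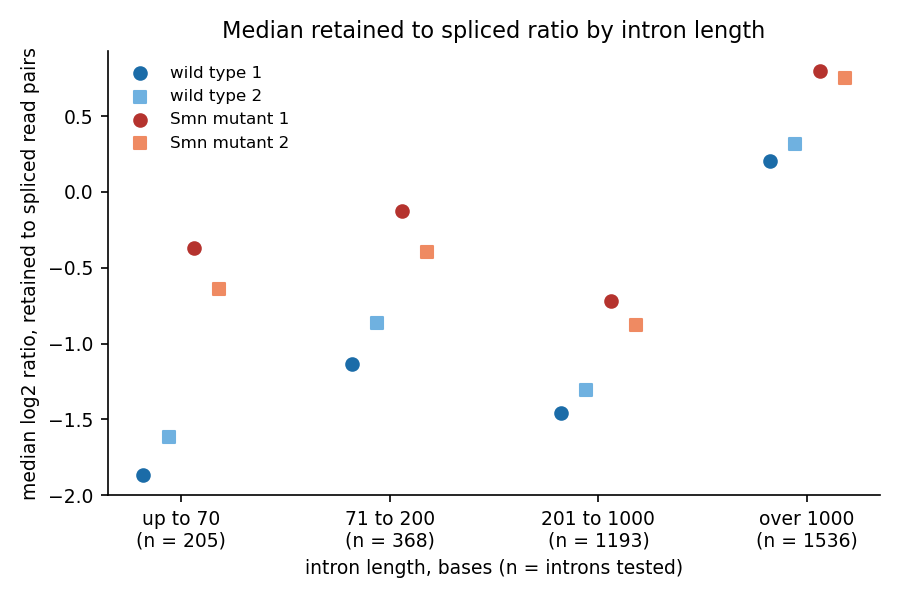
Median log2 of the retained to spliced ratio (vertical axis) for tested introns of 4 length classes (horizontal axis, with the number tested), 1 point per library. In the 71 to 200 base class the mutants sit at -0.12 and -0.40, above the wild type libraries at -1.14 and -0.87, and both mutants are above both wild type libraries in every class shown.

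The rise of this class lay between those of its neighbours. At introns up to 70 bases the group means of the library medians differed by 1.24. By this measure the 71 to 200 base class rose by 0.50 less (exact permutation p = 0.333). The difference between the classes was 0.73 and 0.75 in wild type and 0.25 and 0.24 in the mutants. Against introns above 200 and up to 1000 bases the class rose by 0.16 more (0.32 and 0.44 in wild type, 0.59 and 0.48 in the mutants, exact permutation p = 0.333). That last difference was -0.17 without the mutant library of replicate 1. Within the class, the median change by the fit was 1.21 at 59 introns of 71 to 80 bases and 0.90 at 82 of 81 to 100. It was 0.65 at 144 above 100 and up to 150, and 0.43 at the 83 longest.

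By limma across all 3302 introns, with Benjamini-Hochberg adjustment at 0.05, 71 of the 368 introns passed (19.3%), against 12.1% of all introns tested. Of these, 67 were higher in the mutants (background 11%) and 4 were lower (background 1.09%). At an unadjusted p under 0.05 there were 143. Introns up to 70 bases had larger shares, with 22% passing and 21% higher in the mutants. Those above 200 and up to 1000 bases had 9.05% and 8.47%. Among the 67, the log2 change ran from 0.69 to 5.93 with a median of 2.67. The retained fraction rose by a median of 0.12, by at least 0.2 at 25 and by less than 0.05 at 19, so several large ratios concern introns that remained almost fully spliced. With the ratios centred on each library's median, which removes the shift shared by all introns, 28 were higher and 11 lower. Without the mutant library of replicate 1 the count was 39 and without that of replicate 2 it was 43, and 30 of the 71 introns passed whichever library was left out.

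The 67 introns that rose were picked by their ratio. More pairs in the intron or fewer spliced pairs therefore follow in part from that choice. Scaled to the library's spliced pairs, the intron pairs were higher at 59 of the 62 that could be tested. Their median change was 2.24, against 0.61 over the 1154 tested introns of the class. Spliced pairs were lower at 47 of 66, with a median of -0.52, against 0.17 over the 1976 tested introns of the class. Limma called 0 of the 66 lower, with 15 lower at an unadjusted p under 0.05. At 25 of the 67 the wild type mean was under 10 pairs in the intron, where a fitted change depends on the 0.5 added. The 71 introns formed 66 groups that do not overlap in the genome, and 63 were matched to 60 gene names. RpS26, CG44242 and eIF4A each had 2, which overlap. In 24 of the genes, 42 other introns of any length were tested, and 4 of these were called higher, beside 11% of all introns tested.

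Among matched introns that passed the ratio test, the 6 with the largest rises in fraction were first introns in 5′ UTRs. The intron of CG11151, 88 bases at chrX:13633894-13633981 (dm3), was retained at 0.12 and 0.12 in wild type and 0.76 and 0.67 in the mutants. Its retained pairs were 261 and 70 against 925 and 681 and its spliced pairs 563 and 181 against 134 and 153, a log2 change in ratio of 3.62 (SE 0.24, limma adjusted p = 0.0028). Spliced pairs fell below both wild type libraries while intron pairs rose above them. In ND-PDSW, a subunit of respiratory complex I, the intron of 87 bases at chr2L:3466229-3466315 was retained at 0.22 and 0.22 against 0.74 and 0.77. Its retained pairs were 54 and 16 against 330 and 294 (log2 change 3.27, SE 0.34, adjusted p = 0.00674). The groups were far apart in both genes.

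The intron of CG32276, 126 bases at chr3L:3198867-3198992, was retained at 0.09 and 0.09 in wild type and 0.53 and 0.48 in the mutants, with 148 and 60 against 786 and 541 retained pairs. Its change of 3.35 (SE 0.17) had the lowest adjusted p among introns of this length, 0.00214. In vig2, at chr3R:20949206-20949353, the fractions were 0.33 and 0.19 against 0.73 and 0.68, and the wild type libraries differed more from each other than in the genes above. Its change was 3.27 (SE 0.55, adjusted p = 0.0208). The next genes, both on arm 2R, rested on fewer pairs or on 1 library. GstE11, a glutathione S-transferase, had 4 and 3 against 23 and 18 retained pairs at fractions of 0.11 and 0.07 against 0.51 and 0.45 (adjusted p = 0.0414, and 0.113 without the mutant library of replicate 2). Phb2, a prohibitin of the inner mitochondrial membrane, had fractions of 0.18 and 0.10 against 0.71 and 0.47, and its adjusted p of 0.0489 became 0.0919 without the mutant library of replicate 1.

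**Figure D2:**
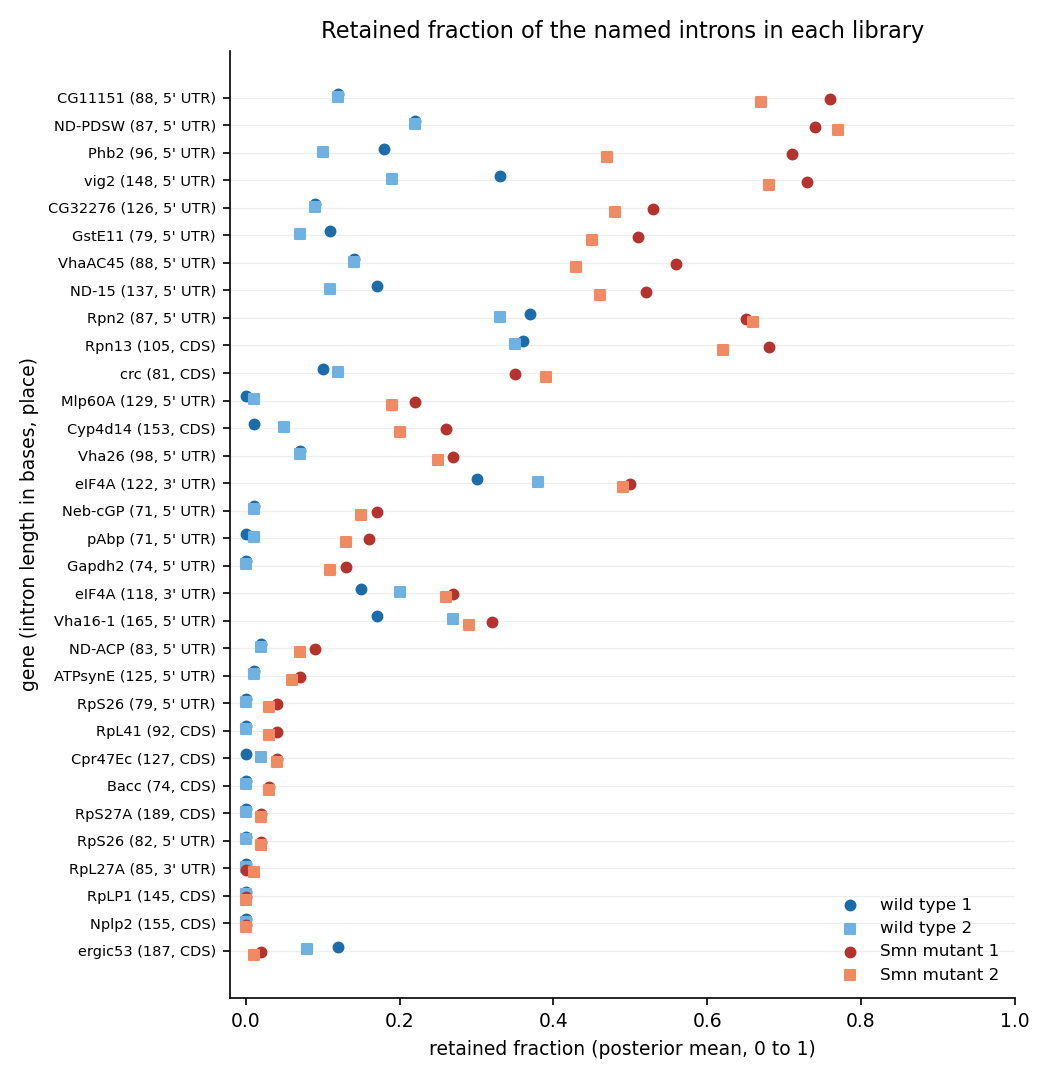
Retained fraction (horizontal axis, posterior mean from 0 to 1) of each named intron (vertical axis, with its length in bases and its place) in each library. At CG11151 the wild type libraries are both at 0.12 and the mutants at 0.76 and 0.67, the ribosomal protein introns shown stay at or below 0.04 in every library, and ergic53 is higher in wild type.

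Other introns moved from almost none retained to a measurable minority. In Gapdh2, a glycolytic dehydrogenase, the 74 base intron of the 5′ UTR at chrX:15762277-15762350 had 12 and 3 retained pairs in wild type and 303 and 200 in the mutants, with spliced pairs of 1120 and 386 against 587 and 487. The fraction was 0.00 and 0.00 against 0.13 and 0.11, and the log2 change 5.46 (SE 0.51, adjusted p = 0.00622). Neb-cGP, with an intron of 71 bases at chrX:10354882-10354952, had 5 and 2 against 110 and 114 retained pairs and fractions of 0.01 and 0.01 against 0.17 and 0.15 (4.80, SE 0.57, adjusted p = 0.00972). Gapdh2 and Neb-cGP passed under each alternative in which they could be tested. Like pAbp and Mlp60A, described next, they reached the minimum of intron pairs through the mutants alone and could not be tested with a minimum mean of 10 in each group. The same limit holds for GstE11 above and for Cpr47Ec, Cyp4d14, ND-ACP and Nplp2 below. The poly(A)-binding protein gene pAbp, with 71 bases at chr2R:14028922-14028992, had 1 and 1 against 118 and 101 retained pairs, and spliced pairs of 177 and 84 against 165 and 171 (a log2 change of 5.74, adjusted p = 0.0228). Its spliced pairs overlapped between the groups and its intron pairs did not.

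Mlp60A, a muscle LIM protein gene on 2R, had 8 and 3 retained pairs in wild type and 839 and 425 in the mutants, at fractions of 0.00 and 0.01 against 0.22 and 0.19 (5.92, SE 0.74, adjusted p = 0.0108). Its spliced pairs were 1230 and 423 against 1751 and 1131, which overlap. Another annotated exon of the gene and an annotated transcript start lie within this intron, so pairs counted as retained may belong to another transcript of Mlp60A. The muscle marker sums above were higher in both mutants than in either wild type library, and their part in this change was not tested. Cpr47Ec, a cuticle protein gene, had 4 and 0 against 61 and 34 retained pairs, but only 28 spliced pairs in the wild type library of replicate 2. Without the wild type library of replicate 1 its adjusted p of 0.0278 became 0.485. In Cyp4d14, a cytochrome P450 gene, an exon of the antisense RNA asRNA:CR45479 overlaps the intron, and these libraries do not mark strand. Its 8 and 4 against 17 and 13 retained pairs may therefore hold reads of either gene, and its adjusted p of 0.0287 became 0.0756 without the wild type library of replicate 1.

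A rise in an internal or last intron of the coding sequence was less common among those named. The largest fitted change, 5.93 (SE 1.15, adjusted p = 0.0296), was at the internal 81 base intron of crc at chr2L:21312044-21312124. This gene encodes the fly counterpart of the stress transcription factor ATF4. Its retained pairs were 71 and 69 in wild type and 212 and 180 in the mutants, its spliced pairs 24 and 23 against 1 and 0, and its fraction 0.10 and 0.12 against 0.35 and 0.39. All 3 measures separated the groups, but with so few spliced pairs in the mutants the size depends on the 0.5 added, and the adjusted p was 0.223 and 0.0995 without the mutant libraries of replicates 1 and 2. Bacc, whose 74 base last intron at chr2L:2756171-2756244 is printed above, had 1 and 3 against 37 and 42 retained pairs beside 433 and 839 against 622 and 605 spliced pairs, at fractions of 0.00 and 0.00 against 0.03 and 0.03 (4.05, SE 0.74, adjusted p = 0.0249, and 0.0755 without the wild type library of replicate 2). Bacc too reached the minimum of intron pairs through the mutants alone.

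The position of the introns that rose can be counted. Of the 153 tested first introns, 50 were higher and 2 lower, with a median change of 1.40, and of the 51 internal introns 2 were higher, with a median of 0.66. Last introns gave 9 of 52 higher and a median of 0.70. Among 95 introns of 5′ UTRs 37 were higher, with a median of 1.48, and among 145 coding introns 21 were higher and 2 lower, with a median of 0.90. First introns within coding sequence, 57 in all, gave 14 higher and 2 lower, and 49 internal coding introns gave 1 higher. Without the mutant library of replicate 1, 24 first introns and 0 internal ones were higher, and with centred ratios 23 first introns and 0 internal ones were higher. The same counts for first and internal introns up to 70 bases were 32 of 95 and 4 of 28, and above 200 and up to 1000 bases 47 of 474 and 28 of 322. These counts describe the introns tested, and the difference between positions was not tested.

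**Figure D3:**
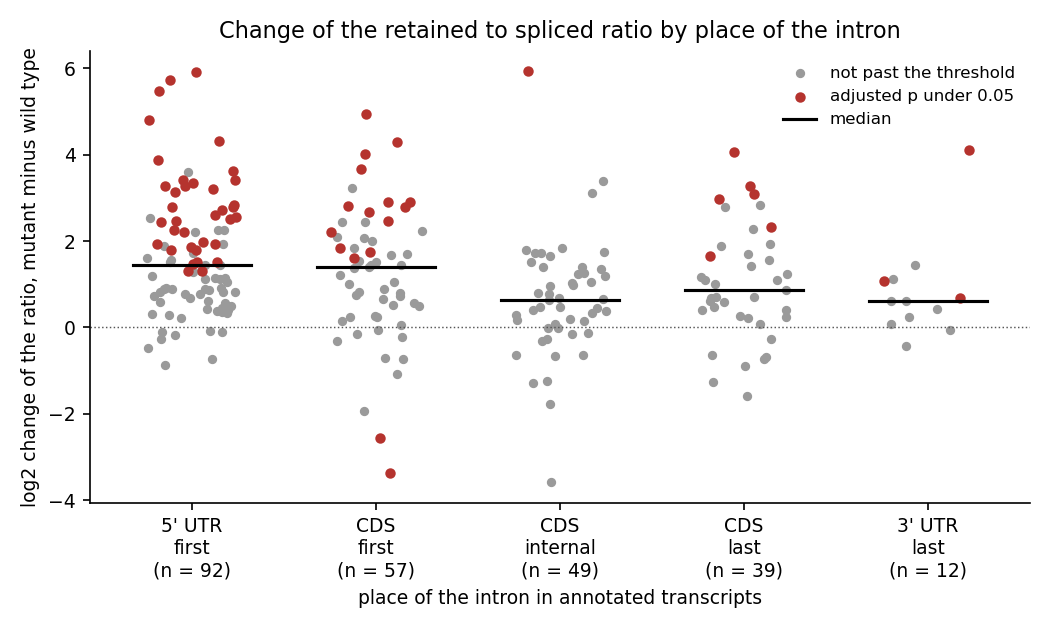
Log2 change of the retained to spliced ratio, mutant minus wild type (vertical axis), for tested introns of 71 to 200 bases matched to genes, by place (horizontal axis), 1 point per intron, with medians as bars and introns past the adjusted threshold in red. First introns of 5′ UTRs have a median of 1.45 with 36 of 92 higher, and internal coding introns a median of 0.63 with 1 of 49 higher.

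Sequence features that the class definition did not use were compared as descriptions. Of the 61 matched introns that rose, 82% were first introns, against 52.3% of 193 tested introns that did not pass and 37.7% of all 3616 matched. The share in 5′ UTRs was 60.7%, 30.1% and 15.6% in the same order, and the share whose retained form is annotated 42.6%, 33.2% and 11.6%. Median GC content was 41.3%, 41.9% and 39.2%, the pyrimidine share of the 20 bases before the last 3 was 65% in each. Over all introns, matched or not, a length divisible by 3 was found in 34.3% of the 67 that rose, 35.7% of the 297 that did not pass and 34.5% of the 4835. Another annotated exon of the same gene reached into 15 of the 61 matched introns that rose, where pairs counted as retained may belong to that exon. At least 8 of 9 matches to AAGGTAAGT, the most frequent base at each place around the start of the 3616 introns, were found in 6.56%, 8.81% and 9.73%. CTAA on the transcribed strand in the last 60 bases was present in 45.9%, 36.3% and 37.7%. Base composition was thus close in the 3 sets, while position differed.

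Ribosomal protein genes, whose products build the cytosolic ribosome, had 55 introns in the class, of which 19 were tested. Of these 19, 10 passed (52.6%), all of them higher, beside 18.2% of tested introns of this length and 11% of all that were higher. Overlapping introns of RpS26 make up 2 of the 10. The list median was 2.78 against 0.70 over all 368, but only 5 of the 19 had a mean of 10 or more pairs of each form in each group. With that minimum, 2 of the 5 were higher and their median was 1.44, against 0.50 over the 224 introns of the class that met it. In RpL41, the 92 base intron at chr2R:20791312-20791403 had 5 and 4 retained pairs in wild type and 74 and 55 in the mutants, beside 2361 and 2947 against 1115 and 1109 spliced pairs (4.94, SE 0.61, adjusted p = 0.0106). RpS26 had 17 and 5 against 163 and 111 retained pairs in its 82 base intron at chr2L:18443071-18443152, beside 3722 and 4095 against 2707 and 2789 spliced pairs (3.87, SE 0.63, adjusted p = 0.0199). Retained pairs did not overlap between the groups in either gene, and the retained fraction stayed at or below 0.04 in every library.

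RpS27A, with 69 and 37 against 603 and 378 retained pairs at chr2L:10410052-10410240, rose by 2.97 (SE 0.40, adjusted p = 0.0126) and had 7867 to 10408 spliced pairs in every library. RpLP1, printed above, had 4 and 3 against 50 and 38 retained pairs beside 7401 and 8228 against 12889 and 12206 spliced pairs, a change of 2.78 (SE 0.62, adjusted p = 0.0407, and 0.111 without the mutant library of replicate 1). Here spliced pairs were higher in the mutants as well. RpL27A, whose intron is in the 3′ UTR, had 1 and 1 against 33 and 39 retained pairs, and its adjusted p of 0.0437 lay between 0.0703 and 0.103 when any 1 library was left out. RpS21, by contrast, had a 3′ UTR intron retained at 0.69 and 0.74 against 0.71 and 0.85, with a change of -0.07 (SE 0.63). With centred ratios 4 of the 19 were higher, with a median of 2.20, and without the mutant library of replicate 1 4 of 16 were higher.

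**Figure D4:**
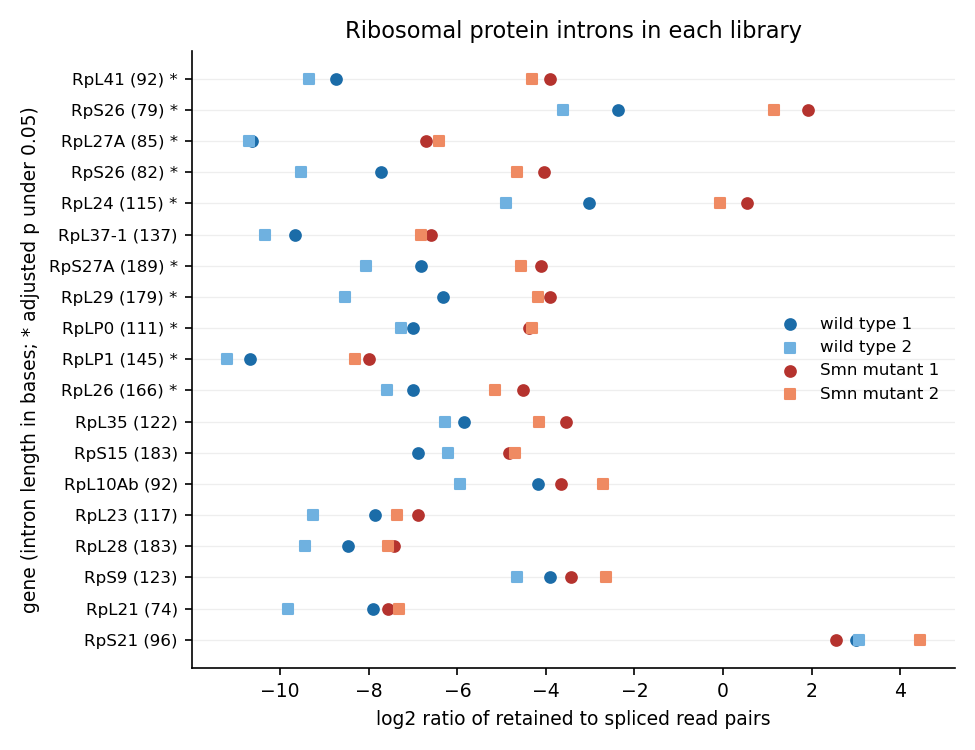
Log2 of the retained to spliced ratio (horizontal axis) for the 19 tested ribosomal protein introns (vertical axis, length in bases, an asterisk where the adjusted p was under 0.05), 1 point per library. The mutants lie to the right of both wild type libraries in every gene shown except RpS21, where 1 mutant library is the lowest.

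Genes of the respiratory chain had 51 introns in the class and 10 tested, of which 4 were higher (18.2% of the class and 11% of all introns tested were) and 7 had an unadjusted p under 0.05. The list's median change was 1.96 against 0.70 over the class. Besides ND-PDSW, the complex I gene ND-15 had 286 and 166 retained pairs in wild type and 1108 and 883 in the mutants at chr2L:155430-155566, at fractions of 0.17 and 0.11 against 0.52 and 0.46 (2.79, SE 0.26, adjusted p = 0.00622). Another annotated exon of ND-15 reaches into this intron, and the same holds for the intron of ATPsynE. A 116 base form of the ND-15 intron with the same start was also tested and did not pass. Its change was 0.81, at fractions of 0.34 and 0.24 in wild type against 0.65 and 0.59 in the mutants. ATPsynE, an ATP synthase subunit, went from fractions of 0.01 and 0.01 to 0.07 and 0.06 (2.25, SE 0.33, adjusted p = 0.0151). ND-ACP, the mitochondrial acyl carrier protein, was at 0.02 and 0.02 against 0.09 and 0.07, with an adjusted p of 0.0422 that became 0.102 without the mutant library of replicate 1. ATPsyngamma did not pass, with fractions of 0.58 and 0.56 against 0.58 and 0.59, which overlap, and a change of -0.11 (SE 0.25).

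The proton pump of acidic compartments, the V-ATPase, had 11 introns and 5 tested, of which 3 were higher, read against the same 18.2% and 11%. Their median change was 1.79, and with centred ratios 2 of the 5 were higher. Its accessory subunit gene VhaAC45 was retained at 0.14 and 0.14 against 0.56 and 0.43 (2.71, SE 0.29, adjusted p = 0.00734), and Vha26 at 0.07 and 0.07 against 0.27 and 0.25 (2.22, SE 0.24, adjusted p = 0.0079). Vha16-1 was at 0.17 and 0.27 against 0.32 and 0.29, nearly overlapping, and its adjusted p of 0.04 became 0.166 without the wild type library of replicate 1. In the proteasome, the cell's protein-degrading complex, 17 introns were listed and both of the 2 tested were higher, a count too small to set against those shares, and 1 was with centred ratios. Rpn13 was retained at 0.36 and 0.35 against 0.68 and 0.62 (1.66, SE 0.21, adjusted p = 0.0106), and Rpn2 at 0.37 and 0.33 against 0.65 and 0.66 (1.48, adjusted p = 0.0417, and 0.161 without the mutant library of replicate 2).

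Of 26 introns in translation initiation factor genes, 3 were tested and 2, both in eIF4A, were higher (11% of all introns tested were). This gene encodes the RNA helicase of the cap-binding complex, and the overlapping introns share their 3′ UTR start at chr2L:5985221. The form of 118 bases was retained at 0.15 and 0.20 against 0.27 and 0.26, with a change of 0.69 (SE 0.15, adjusted p = 0.0402). With centred ratios neither form passed, with changes of 0.13 and 0.52 and limma adjusted p of 0.446 and 0.172. Nplp2, a neuropeptide-like precursor gene at chr3L:13349953-13350107, had 17 and 0 against 134 and 95 retained pairs, beside 12952 and 617 against 8778 and 9423 spliced pairs. Its adjusted p of 0.0235 became 0.388 without the wild type library of replicate 1.

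The introns of spliceosome genes did not enter the ratio test at these minimum numbers of pairs. Of 9 introns in snRNP and spliceosome genes, 4 in nonsense-mediated decay genes and 17 in mitochondrial ribosomal protein genes, 0 met the minimum numbers. With no minimum of each form, 4 of the spliceosome introns and 15 of the mitochondrial ribosomal ones were tested, and 0 passed. Their median changes were 0.55 and 0.05, against 0.56 over the class. Of 3 introns in genes of the Smn complex and snRNP assembly, 1 was tested, in the importin gene Fs(2)Ket, and it did not pass (fractions of 0.04 and 0.20 against 0.16 and 0.12, which overlap). Of 13 introns of this length in a list of genes that hold a minor-class intron, written from memory, 1 was tested, the first intron of Phb2 described above, which is not itself of the minor class by sequence.

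None of the 3 minor-class introns met the minimum of pairs, and their values are given without a test. In BuGZ, a spindle protein gene, the intron at chr2L:16743571-16743759 was retained at 0.03 and 0.05 in wild type and 0.06 and 0.03 in the mutants, with 3 and 2 against 12 and 6 retained pairs. The intron of Nhe3, a sodium and proton exchanger, at chr2L:6681773-6681942, was at 0.05 and 0.02 against 0.09 and 0.07. In CG11839, at chr3R:20895773-20895924, it was at 0.21 and 0.16 against 0.34 and 0.25, with 10 and 25 against 0 and 12 spliced pairs. The fractions overlapped between the groups in BuGZ. In the other genes both mutants were above both wild type libraries, as at 24.9% of the class and 26.9% of all introns. The retained pairs of CG11839, 6 and 12 against 14 and 11, overlapped, and no library had more than 14 at any of the 3.

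Introns that fell were few. In ergic53, a cargo receptor between the endoplasmic reticulum and the Golgi, the first coding intron at chr3L:8528287-8528473 had 161 and 21 retained pairs in wild type and 11 and 3 in the mutants, and spliced pairs of 468 and 96 against 157 and 152. The fraction was 0.12 and 0.08 against 0.02 and 0.01, with a change of -2.56 (SE 0.60, adjusted p = 0.0443, and 0.115 without the mutant library of replicate 1). This intron reached the minimum of intron pairs through wild type alone. The other 3 are named here after their values were seen. At chr2L:18813144-18813297, in a stretch shared by CG17325 and CG42305, spliced pairs were 120 and 66 against 1835 and 1772. Retained pairs were 5 and 11 against 23 and 13, so both forms were higher in both mutants. The ratio changed by -3.36 (SE 0.70, adjusted p = 0.0346). Unmatched introns at chr2R:2515127-2515236 and chr2L:5944154-5944281 fell from fractions of 0.77 and 0.73 to 0.51 and 0.52 and from 0.26 and 0.28 to 0.10 and 0.12.

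Of the 297 tested introns that did not pass, 31 had a 95% interval of the change that lay within 1 log2 unit of 0, and 217 had an interval reaching 1 or more. For most introns that did not pass, a change of 1 log2 unit was therefore within the error.

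The authors' own comparison, which pairs single libraries and gives a Bayes factor, covered introns that the ratio test could not. A call needed a Bayes factor of 10 or more and a shift in fraction of 0.2 or more, the same way in all 4 pairings of a wild type with a mutant library. By this rule 46 of 4835 introns were called (0.951%), against 0.77% of all 23758. Of these 40 were higher in the mutants (background 0.64%) and 6 lower (background 0.13%). The share called was 0.372% of introns up to 70 bases, 0.746% of those above 200 and up to 1000 bases, and 1.26% of longer ones. In the ratio test 21 of the 46 were present and 18 passed. Among those matched to a gene, 27 of 32 were first introns, against 37.7% of all 3616 matched introns of the class. Introns outside the ratio test, named after their values were seen, include CG9003 on 2R, retained at 0.11 and 0.11 against 0.66 and 0.63, and the glycyl-tRNA synthetase gene GlyRS at 0.08 and 0.12 against 0.52 and 0.37.

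The lowest values in the mutants by this measure were at the neighbouring genes Unc-115b and Unc-115a, homologues of a worm actin-binding protein. Their first coding introns were retained at 0.92 and 0.91 against 0.06 and 0.05 at chr3R:5517198, and at 0.94 and 0.91 against 0.04 and 0.05 at chr3R:5525084. These fractions rest on almost no pairs that tell the forms apart in the mutants, with 2 and 2 retained pairs at each intron, against 176 and 88 and then 183 and 92 in wild type. Spliced pairs were 2 and 0 against 0 and 0 in Unc-115b and 1 and 0 against 1 and 0 in Unc-115a. The genes are close copies of each other, an exon of p24-2 overlaps the intron of Unc-115b, and reads may be divided between the copies, so the assignment is uncertain. The groups also differ in strain.

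Spliced pairs alone, scaled to each library's total, changed at few introns. Limma called 7 of 1976 (0.354%, background 0.191%), 3 higher (background 0.0603%) and 4 lower (background 0.131%), and 475 had an unadjusted p under 0.05. The median change was 0.17. Sf3b3, a spliceosome protein gene whose intron at chr3L:827698-827876 is shared with lncRNA:CR45184, had 5 and 5 spliced pairs in wild type and 196 and 167 in the mutants. CG31075 had 276 and 244 against 20 and 20 and Cyp4d2 128 and 94 against 10 and 9, while CG30458 had 8 and 5 against 164 and 207. These groups did not overlap, and the retained fraction was low in most of their libraries. An exon of asRNA:CR44690 overlaps the Cyp4d2 intron and one of snoRNA:Me28S-G3113a the Sf3b3 intron, and these libraries do not mark strand. Pairs inside the intron, scaled in the same way, gave 196 calls of 1154 (17%, background 18.4%), 170 higher (background 17.3%) and 26 lower (background 1.12%), but 3 higher and 13 lower when scaled by the median ratio over introns.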

How the data were processed

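Whole-larva RNA was sequenced in 2 Oregon R and 2 Smn mutant libraries, grouped by the sample titles. Alignment by the authors was to dm3 with TopHat 2.0.8 on Bowtie2 2.1.0, and MISO 0.4.8 then compared single libraries in pairs over modENCODE events, per the deposited readme. The deposited files give, per the file headers, the retained form's fraction (posterior mean, rounded to 0.01), a Bayes factor, which is a ratio of 2 likelihoods, and read pairs by the forms they fit. Read pairs are not independent molecules, and events overlap, so library depth is unknown. The library kit, per the labels' protocols, does not mark strand.

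The log2((retained + 0.5)/(spliced + 0.5)) of isoform-specific pairs was fitted by limma 3.58.1 (R 4.3.3), weighted by counting variance, over 3302 retained introns of all lengths. Each isoform's pairs were also fitted alone, for introns with at least 20 in at least 2 libraries, with limma's trend option. The read classes deposited by the authors carry no normalization, and other deposited event types were not used here. The fits were tested on simulated data.

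The reference is dm6. An event was matched to an annotated intron of the same arm, strand and length with a flanking exon of the same length, where neighbouring events had the same displacement. No coordinates were converted. Event positions are dm3, and sequences were read from dm6 at the annotated intron.

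Introns were named by rank: the 12 largest rises and up to 6 falls in ratio, 6 and 3 in fraction, the 4 deepest, and up to 4 per gene list. The intron class, lists, minimum of 10 and naming rule were chosen with earlier results of these data known.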

Additional observations from a re-analysis of the deposited data

How the results depend on the processing

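Of 76 alternatives to the results over the whole class, 55 kept a count within 1.5 times, the direction of a change in ratio or a median fraction within 1 SD. Using 1 event per intron repeated each main value, since each of the 4835 was already a different intron. The replicate block likewise repeated the median ratio. These settings were no check, though they are counted here and, for 1 event per intron, among the named introns below. The 71 calls of the ratio became 10 with no minimum of each form (10 higher of 2011 tested), 39 with centred ratios and 39 with a minimum mean of 10 in each group, a setting chosen after seeing the data. Leaving out 1 library at a time gave 39 to 78. The 7 calls of spliced pairs became 14 to 1016 and the 196 of intron pairs 3 to 698 when 1 library was left out, and 16 with median ratio scaling, so neither count is stable. Bayes factor calls rose from 46 to 70 at a difference of 0.1 and lay between 66 and 80 without 1 library. A smaller difference or fewer pairings loosens the rule, so these Bayes factor counts could not fall. The difference in median fraction of 0 became 0.0175 as a mean and lay between -0.005 and 0.005 without 1 library. The median rise in ratio ran from 0.37 to 0.90 without 1 library, and its excess over introns above 200 and up to 1000 bases from -0.17 to 0.27. The shift against introns up to 70 bases ran from -0.94 to -0.22 without 1 library, was -0.13 with no minimum of each form and was further from 0 than this range with a minimum mean of 5. The ratios of same-numbered libraries did not deviate together (correlation 0.038 over the tested introns), so the numbers are not taken as pairs. The same correlation was not measured for spliced pairs or intron pairs alone. With the replicate number as a block, the ratio gave 53 calls, spliced pairs 72 and intron pairs 338. Of 454 alternatives over the 32 named introns, 360 kept the call, 92 lost it in the same direction, and 2 gave a change of 0, at RpLP1 and Nplp2 on the logit of the fraction, which is 0.00 in every library there. CG11151, CG32276, Gapdh2, ND-PDSW, Neb-cGP, Rpn13 and Vha26 passed under each alternative that could test them (Gapdh2 and Neb-cGP could not be tested with a minimum mean of 10 in each group), and 19 of the 32 passed whichever library was left out. The cause of the other losses was not tested. Of the 4835 introns, 2824 had under 20 informative pairs in a library, and a further 1643 had too few of 1 form.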
